A study of Mus musculus with 6 samples.

Results

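The 10 genes described here encode membrane-bound proteases of the ADAM family (Adam9, Adam10, Adam12, Adam17 and Adam19) and secreted proteases of the related ADAMTS family (Adamts1, Adamts2, Adamts4, Adamts5 and Adamts9). They were chosen by name from an RNA-Seq expression table of 19730 rows, where each symbol matched 1 row. The cells were mesangial cells cultured from mouse kidney, which support the capillaries of the glomerulus and can contract. All cultures were used at passage 3 to 6, in medium that held 25.5 mM glucose and 20% serum. The 3 Control libraries came from cells without added cytokine, and the 3 TGF-β1 libraries from cells given 10 ng/ml of transforming growth factor beta 1, a secreted driver of scarring, for 72 h. The comparison asks which of these protease genes changed in expression with the treatment. The labels do not say that the libraries of a group came from separate cultures or animals, so the p-values below measure only the spread between these libraries, which may be technical.

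ADAM proteins are anchored in the cell membrane by a single span and cut other membrane proteins close to the cell surface, which releases growth factors, cytokine receptors and adhesion molecules into the surroundings. ADAMTS proteins lack the membrane anchor, carry thrombospondin repeats that bind them to the matrix, and cut matrix proteins: one branch cleaves proteoglycans such as versican and aggrecan, and another trims the amino end of procollagens before fibrils form. Mesangial cells make and remodel the matrix that accumulates in scarred glomeruli, and both families are made as inactive precursors, so that a transcript level is not a measure of activity.

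Levels are given as FPKM, fragment counts scaled by transcript length and library size, so genes of different length can be compared. Each library held 10.12 to 11.07 M (mega) fragments, as recovered from the steps between low FPKM values. Known TGF-β responses were upregulated: Ctgf, a matrix-associated signalling protein, went from 48.2 ± 19.4 to 1154 ± 152 FPKM (mean ± SD, n = 3 per group), and Col1a1 and Acta2 rose too. Of 5 mesangial markers, Acta2 and Pdgfrb were abundant, while Des and Itga8 were under 1 FPKM in both groups. Pdgfrb fell from 37.5 ± 4.82 to 29.2 ± 0.751 FPKM (limma adjusted p = 0.0396), a call lost when rows of low level were kept. Gata3 was at 1.76 ± 0.882 and 1.03 ± 0.211 FPKM and was not called. The 5 endothelial markers were each under 1 FPKM on average, and Ptprc, which marks blood cells, was listed at 0 in the Control libraries and was under 1 FPKM with TGF-β1. One tubular gene stood out. Cdh16, the kidney cadherin, fell from 130 ± 16.1 to 6.30 ± 0.564 FPKM, so that the summed level of the 3 tubular markers found, of 5 listed, moved from 115 to 148 FPKM in Control to 6.08 to 7.15 FPKM with TGF-β1, although Cdh1, the epithelial cadherin, was near 0 in both. Among podocyte markers, Synpo fell from 12.3 ± 0.644 to 7.88 ± 0.569 FPKM, and the 4 macrophage markers found, of 5 listed, moved in sum from 8.19 to 9.58 down to 2.26 to 3.24 FPKM. Csf1r, the receptor for macrophage colony-stimulating factor, made most of that difference (6.27 ± 0.979 to 0.411 ± 0.156 FPKM), while Cd68 was not called and Ptprc and Itgam were under 1 FPKM in both groups. The part of these marker changes in the protease results was not tested, and fewer cells of a type cannot be told apart from less RNA per cell. The replicate 2 libraries of both groups deviated together from their group means, with a correlation of 0.232 across genes against -0.194 to 0.117 for the other pairs of a Control and a TGF-β1 library, so the fit was repeated with replicates 1 and 3 alone, and member calls that changed are given both ways.

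With TGF-β1, most membrane-bound members rose and the abundant proteoglycan-cleaving ADAMTS members fell. Adamts1, the most abundant member in Control cells, dropped 17.2-fold, and Adam12, among the lowest, rose 8.89-fold. Of the 9 members with a mean of at least 1 FPKM, 6 rose, 2 fell and 1 was not called (limma, adjusted p under 0.05). In the same test, 48.1% of all 11898 rows were called, 24.5% as higher and 23.6% as lower. Of the 9, 4 were called with a difference of 1 or more on the log2(FPKM + 1) scale, against 13.9% of all rows. The median absolute change was 0.83 on that scale for the 9 members and 0.40 for all tested rows. The remaining member, Adamts9, averaged under 1 FPKM and was taken from the fit without that filter, where 30.5% of 19730 rows were called, 14.6% as higher and 16.0% as lower, 8.62% were called with a difference of 1 or more, and 44.1% had groups that did not overlap. The ranges of the 2 groups did not overlap for any of the 9 members, nor did they for 59.4% of the rows past the filter. Other scalings, filters and sets of libraries left 4 to 6 of the 9 called higher and 2 to 3 called lower, and no member changed direction in any of them.

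**Figure D1:**
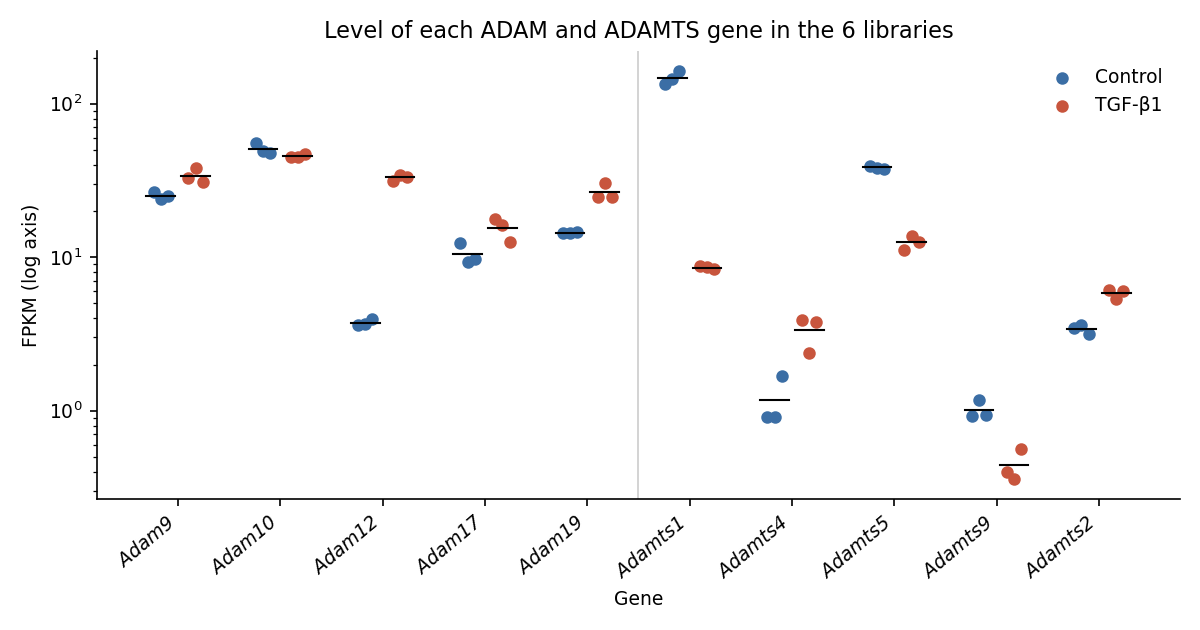
FPKM of each of the 10 genes (log axis) in the 3 Control libraries (blue) and the 3 TGF-β1 libraries (red), with a black line at each group mean and a grey line between the ADAM and the ADAMTS genes. Adam12 climbs from about the level of Adamts2 to that of Adam9, and Adamts1 drops from the top of the Control libraries to 8.39 to 8.71 FPKM.

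**Figure D2:**
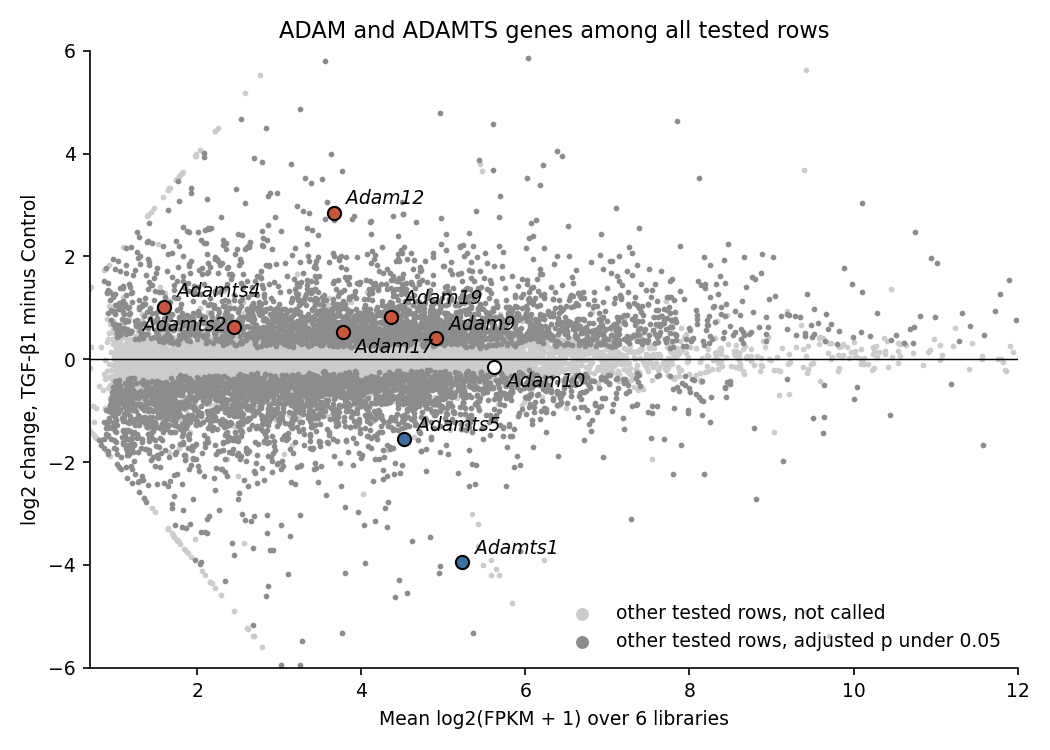
Change on the log2(FPKM + 1) scale (TGF-β1 minus Control) against the mean log2(FPKM + 1) over 6 libraries, for all tested rows (light grey: not called, dark grey: called) and for the 9 members past the filter (red: higher, blue: lower, white: not called). Adam12 at 2.85 and Adamts1 at -3.95 lie far from the other members, and 40 rows lie outside the axes.

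The promoters of the members with the widest changes, Adam12 and Adamts1, and of Adam19, a close relative of Adam12, are shown to allow the changes to be read beside the sequence. Each is the 250 bases before the start of the row's transcript, read 5′ to 3′ on the strand of the gene from the mm9 genome with the GENCODE M1 annotation. Capitals mark matches, on either strand, to 4 short motifs: the AP-1 site TGANTCA, the SMAD box CAGAC, the MCAT element CATTCC and the TATA box TATAAA.
Adam12 promoter, chr7:141416781-141417030, minus strand: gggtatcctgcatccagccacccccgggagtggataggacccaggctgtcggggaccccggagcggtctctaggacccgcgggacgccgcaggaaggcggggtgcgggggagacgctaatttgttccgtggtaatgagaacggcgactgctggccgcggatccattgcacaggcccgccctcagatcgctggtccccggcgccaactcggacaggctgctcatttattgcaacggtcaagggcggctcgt
Adam19 promoter, chr11:45867754-45868003, plus strand: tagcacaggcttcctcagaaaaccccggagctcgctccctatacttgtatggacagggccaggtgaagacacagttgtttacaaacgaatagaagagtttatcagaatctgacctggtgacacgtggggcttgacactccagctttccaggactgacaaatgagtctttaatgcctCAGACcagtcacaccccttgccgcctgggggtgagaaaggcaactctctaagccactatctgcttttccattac
Adamts1 promoter, chr16:85803359-85803608, minus strand: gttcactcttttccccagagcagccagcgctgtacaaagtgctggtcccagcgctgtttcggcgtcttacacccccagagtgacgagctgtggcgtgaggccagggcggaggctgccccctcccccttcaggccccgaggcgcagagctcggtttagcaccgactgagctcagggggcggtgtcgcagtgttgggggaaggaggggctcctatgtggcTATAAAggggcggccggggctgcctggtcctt
The Adam19 window held a SMAD box 74 bases before the start and the Adamts1 window a TATA box 32 bases before it, while the Adam12 window held none of the 4. The Adam19 and Adamts1 windows border their annotated genes. The Adam12 window lies inside its gene (chr7:141074882-141423829), before an internal start, and other starts of that gene were not searched. For comparison, 10846 promoters of the same length were searched, those of the members and of protein-coding rows averaging at least 1 FPKM. The shares with a match were 39.6% for the SMAD box, 6.44% for the TATA box, 4.03% for the AP-1 site and 10.4% for the MCAT element. A match in so short a window is a description and does not show binding.

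Adam12 (meltrin alpha) makes a protease that is low in most adult tissues and is known to bind the TGF-β receptor. Its row is the transcript ENSMUST00000067680 of the gene at chr7:141074882-141423829 (minus strand, mm9), and it read 3.60, 3.66 and 3.95 FPKM in Control replicates 1 to 3 and 31.6, 34.5 and 33.4 FPKM in TGF-β1 replicates 1 to 3. Every treated library was far above every control library. The mean rose from 3.73 ± 0.186 to 33.2 ± 1.49 FPKM, 8.89-fold, which is 2.85 on the log2(FPKM + 1) scale (SE 0.0779, limma adjusted p = 5.96e-06). This placed it at rank 79 of 11898 rows by size of rise, and it passed from above 20.7% of tested rows to above 75.4% of them.

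Adam19 (meltrin beta) sheds neuregulin and is the closest relative of Adam12 in this set. The row ENSMUST00000164892, of the gene at chr11:45868004-45960845 (plus strand), read 14.3, 14.4 and 14.6 FPKM in Control and 24.7, 30.4 and 24.7 FPKM with TGF-β1. The control libraries hardly differed, and the 3 treated ones were all higher, replicate 2 the most. The mean went from 14.4 ± 0.168 to 26.6 ± 3.31 FPKM, a rise of 0.83 on the log2(FPKM + 1) scale (SE 0.101, limma adjusted p = 0.00103). A pair of non-coding genes overlaps Adam19 on the opposite strand, and use of strand in the counting is not stated.

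Adam9 sheds several membrane proteins, the growth factor HB-EGF among them. It lies at chr8:26060083-26127394 (minus strand, row ENSMUST00000084035) and read 26.4, 24.0 and 25.1 FPKM in Control and 32.9, 38.3 and 30.8 FPKM with TGF-β1. The groups did not overlap, and treated replicate 2 was the highest. The mean rose from 25.2 ± 1.20 to 34.0 ± 3.89 FPKM, 1.35-fold, or 0.41 on the log2(FPKM + 1) scale (SE 0.101, limma adjusted p = 0.0163). The call was lost without Control replicate 2 (0.38, adjusted p = 0.0552), with replicates 1 and 3 alone (0.29, adjusted p = 0.0726) and with libraries scaled to a common sum of protein-coding FPKM (0.22, adjusted p = 0.112), within a range of 0.0155 to 0.112 over all alternatives run.

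Adam17, the TNF-alpha converting enzyme, is the main sheddase of several EGF receptor ligands and of TNF receptors. Its row (ENSMUST00000101551, chr12:21329370-21379493, minus strand) read 12.3, 9.32 and 9.76 FPKM in Control and 17.7, 16.3 and 12.6 FPKM with TGF-β1. The highest control library and the lowest treated library were close, though the groups did not overlap. The mean moved from 10.5 ± 1.61 to 15.5 ± 2.61 FPKM, 0.53 on the log2(FPKM + 1) scale (SE 0.157, limma adjusted p = 0.0330). This was the least secure call of the set: leaving out Control replicate 2, Control replicate 3, TGF-β1 replicate 1 or TGF-β1 replicate 2 gave adjusted p = 0.102, 0.0898, 0.106 and 0.0905, replicates 1 and 3 alone gave 0.199, scaling to the common sum gave 0.0896 at a change of 0.35, and the range over all alternatives was 0.0202 to 0.199. The protein-coding gene Iah1 overlaps it on the opposite strand.

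Adam10, the sheddase of Notch receptors and N-cadherin, was the most abundant membrane-bound member in both groups. It read 55.8, 48.9 and 47.5 FPKM in Control and 45.1, 45.2 and 47.0 FPKM with TGF-β1, so the lowest control library was just above the highest treated one. The difference of -0.14 on the log2(FPKM + 1) scale (95% interval -0.35 to 0.06) did not pass the test (limma adjusted p = 0.216). The same scaling to a common protein-coding sum, which moved the median of all genes by -0.17, gave -0.33 with an adjusted p of 0.0127, and the adjusted p ranged from 0.0127 to 0.466 over all alternatives. The row for Adam10 (ENSMUST00000140205, gene at chr9:70526804-70628036, plus strand) names a transcript of 2720 nt annotated as nonsense-mediated decay, 1 of 5 transcripts of the gene, and whether it holds the value of the gene or of that transcript is not stated.

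Summed per library, the 5 membrane-bound members went from 104.5 ± 6.81 to 155 ± 8.51 FPKM. Adam12 made up 3.59% of this sum in Control and 21.4% with TGF-β1, while the share of Adam10 went from 48.5% to 29.6%. The share of Adam17 was 9.97% and 10.0%.

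Adamts1 and Adamts5 both cleave proteoglycans of the versican and aggrecan kind, and both fell. They are neighbours on chromosome 16, on the same strand, with 55.1 kb and 0 annotated genes between them. Adamts1 (ENSMUST00000023610, chr16:85794072-85803358, minus strand) read 135, 144 and 163 FPKM in Control and 8.71, 8.58 and 8.39 FPKM with TGF-β1. The treated libraries were close to one another and all far below the controls. The mean fell from 147 ± 14.5 to 8.56 ± 0.161 FPKM, 17.2-fold lower, a change of -3.95 on the log2(FPKM + 1) scale (SE 0.0907, limma adjusted p = 3.82e-06) that ranked 55 of 11898 rows by size of fall. In Control cells it stood above 94.6% of tested rows, and with TGF-β1 above 41.3%.

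Adamts5, the main aggrecanase of mouse cartilage, has its row ENSMUST00000023611 at chr16:85858415-85901370 (minus strand). It read 39.4, 38.2 and 37.8 FPKM in Control and 11.2, 13.6 and 12.6 FPKM with TGF-β1, again with no treated library near a control. The mean fell 3.08-fold, from 38.5 ± 0.826 to 12.5 ± 1.24 FPKM, which is -1.55 on the log2(FPKM + 1) scale (SE 0.0902, limma adjusted p = 6.33e-05). It is the only member with a single annotated transcript.

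Adamts4, the other classical aggrecanase, moved the opposite way at a low level. The row ENSMUST00000111315 (chr1:173180552-173190768, plus strand) read 0.908, 0.916 and 1.68 FPKM in Control and 3.92, 2.39 and 3.79 FPKM with TGF-β1, values that rest on about 42 to 76 and 101 to 180 fragments. The third control library and the second treated library came nearest to each other without overlap. The mean rose 2.88-fold, from 1.17 ± 0.445 to 3.37 ± 0.852 FPKM, a change of 1.01 on the log2(FPKM + 1) scale (SE 0.213, limma adjusted p = 0.00929).

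Adamts9, which cleaves versican, had the lowest mean of the set in both groups. It read 0.922, 1.18 and 0.944 FPKM in Control and 0.398, 0.362 and 0.566 FPKM with TGF-β1, on about 80 to 102 and 29 to 48 fragments (ENSMUST00000113438, chr6:92722693-92893486, minus strand). All treated libraries were lower. The mean fell 2.30-fold, from 1.02 ± 0.143 to 0.442 ± 0.109 FPKM, a change of -0.48 on the log2(FPKM + 1) scale in the fit without the filter (SE 0.0965, limma adjusted p = 0.0127). That call was lost without TGF-β1 replicate 1 (adjusted p = 0.0511) and with replicates 1 and 3 alone (adjusted p = 0.0755), within a range of 0.00837 to 0.0755 over all alternatives, and 3 genes overlap Adamts9 on the opposite strand. With a pseudocount of 0.1 in place of 1, the change read -1.05.

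**Figure D3:**
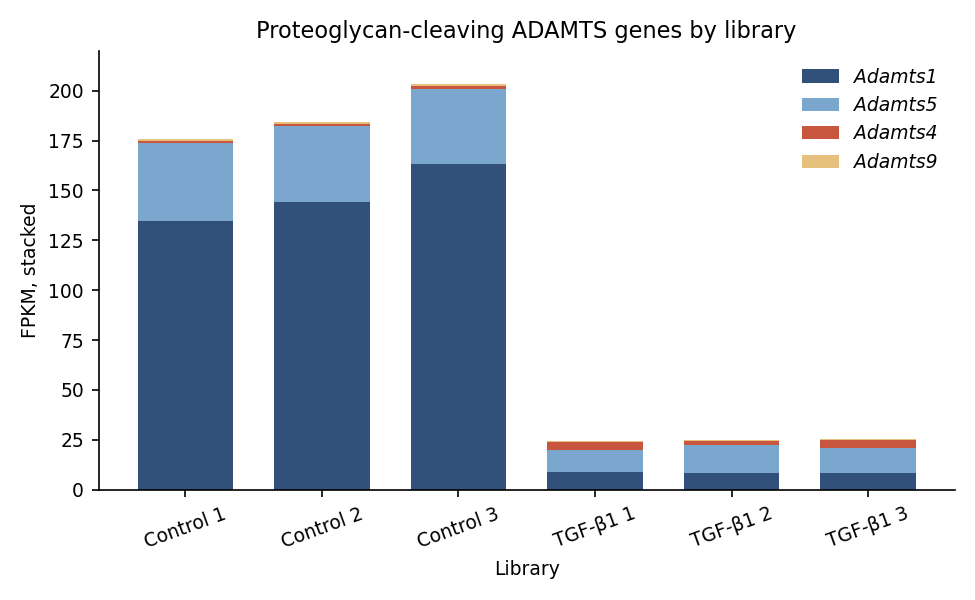
FPKM of the 4 proteoglycan-cleaving ADAMTS genes stacked in each of the 6 libraries, with the y axis from 0. The stack is dominated by Adamts1 (dark blue) in the Control libraries, and in the TGF-β1 libraries it is low with Adamts5 (light blue) as its widest layer.

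The 4 proteoglycan-cleaving members together went from 188 ± 14.2 to 24.8 ± 0.583 FPKM. Adamts1 held 78.3% of the sum in Control and 34.5% with TGF-β1. The share of Adamts5 went from 20.6% to 50.2% although its level fell, and that of Adamts4 from 0.613% to 13.6%.

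Adamts2 belongs to the other branch: it removes the amino propeptide of fibrillar procollagens. Its row (ENSMUST00000040523, chr11:50415586-50621075, plus strand) read 3.45, 3.64 and 3.15 FPKM in Control and 6.16, 5.34 and 5.98 FPKM with TGF-β1. Each treated library was above each control library. The mean rose 1.71-fold, from 3.41 ± 0.244 to 5.83 ± 0.432 FPKM, a change of 0.63 on the log2(FPKM + 1) scale (SE 0.0974, limma adjusted p = 0.00276). Non-coding genes overlap Adamts2 on the opposite strand.

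By level per length, the order in Control cells was Adamts1, Adam10, Adamts5, Adam9, Adam19, Adam17, Adam12, Adamts2, Adamts4 and Adamts9. The ranges of Adam12 and Adamts2 overlapped, as did those of Adamts4 and Adamts9, and other neighbours were separate. With TGF-β1 the order was Adam10, Adam9, Adam12, Adam19, Adam17, Adamts5, Adamts1, Adamts2, Adamts4 and Adamts9, with overlap between Adam9 and Adam12 and between Adam17 and Adamts5. All 10 members summed to 296 ± 10.3 FPKM in Control and 186 ± 8.11 FPKM with TGF-β1.

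Ratios between members of the same library do not depend on how libraries are scaled, apart from the pseudocount of 1. In FPKM, Adam12 over Adam19 was 0.252, 0.255 and 0.270 among Control libraries against 1.28, 1.14 and 1.35 among treated ones, so the order of the pair turned in every treated library. Adamts1 over Adamts5 was 3.41, 3.77 and 4.31 among Control libraries against 0.780, 0.629 and 0.666 among treated ones, and this order turned as well. On the scale of log2((a + 1)/(b + 1)), the differences were 2.02 for Adam12 over Adam19, -2.40 for Adamts1 over Adamts5, 2.56 for Adamts4 over Adamts5 and -0.67 for Adam10 over Adam17. None of the 4 pairs overlapped between groups. Each had p = 0.1 in an exact permutation test, which is the smallest value that 3 against 3 libraries allow. After adjustment over the 4 pairs, p was also 0.1. The pairs join members whose own groups did not overlap and whose changes differed. Their separation is therefore no separate support for those changes, and the share of other gene pairs without overlap was not computed.

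The rest of the family did not move in 1 direction. The counts below stand beside 24.5% of all tested rows called higher and 23.6% called lower. Of 29 other ADAM genes listed, 14 were found in the table and 4 passed the filter: Adam5 and Adam8 fell, and Adam1a and Adam15 were not called, with a median change of -0.60. Adam8 was near the threshold (2.79 ± 1.25 to 1.19 ± 0.256 FPKM, limma adjusted p = 0.0433): it was called in 1 of the 6 fits that left out a library and not in the fit without the filter (adjusted p = 0.0671), with a range of 0.0246 to 0.119 over the alternatives. Adam15, the most abundant of them, was at 82.3 ± 25.4 FPKM in Control and 61.1 ± 22.0 FPKM with TGF-β1 (-0.45 on the log2(FPKM + 1) scale, limma adjusted p = 0.331), and its replicate 2 was the lowest in both groups. Adam5 went from 2.13 ± 0.554 to 0.252 ± 0.0875 FPKM (-1.31, adjusted p = 0.00126). It passed the filter through the Control libraries, so the count and the median of these other ADAM genes depend on the filter. Without the filter, 1 of the 14 found rose and 3 fell.

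Among 14 other ADAMTS genes, 12 were found and 6 tested, of which 3 rose (Adamts6, Adamts12 and Adamts16) and 1 fell (Adamts10). Adamts12 and Adamts16 averaged 0.560 and 0.585 FPKM in Control and passed the filter through the TGF-β1 libraries, at 2.40 and 2.18 FPKM. The median change of 0.64 therefore depends on the filter. Without the filter, again 3 of the 12 found rose and 1 fell, while at a filter of 3 FPKM 2 were called. Adamts6 read 1.98, 2.25 and 1.55 FPKM in Control and 12.1, 12.2 and 12.5 FPKM with TGF-β1. It rose by 2.19 on the log2(FPKM + 1) scale (limma adjusted p = 4.3e-05), which among the tested genes of the family was exceeded by Adam12 alone. Adamts10, a binding partner of fibrillin and the most abundant of these 6 in Control cells, fell from 18.7 ± 0.613 to 9.41 ± 1.49 FPKM (-0.93, adjusted p = 0.00121). The ADAMTS-like proteins share the thrombospondin repeats but have no protease domain: both of the 2 that passed the filter, of 7 listed, fell, Adamtsl4 from 10.2 ± 1.30 to 2.33 ± 0.847 FPKM (-1.78, adjusted p = 6.5e-04) and Adamtsl5 from 12.6 ± 2.02 to 7.47 ± 1.32 FPKM (-0.69, adjusted p = 0.0130).

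**Figure D4:**
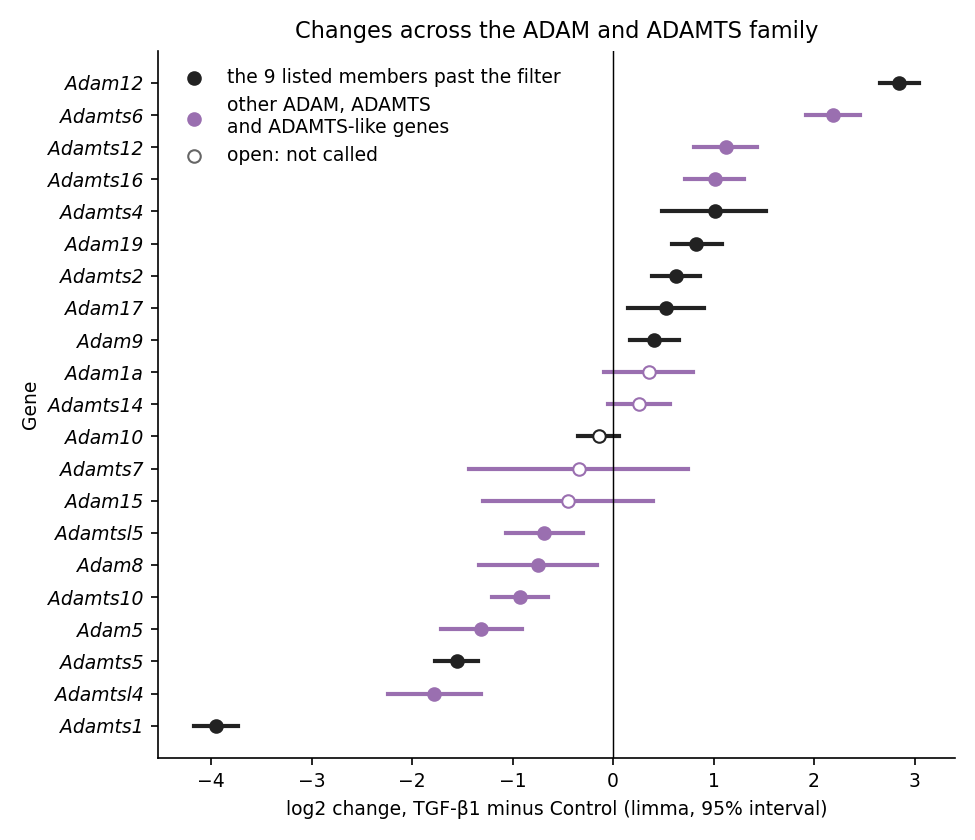
Change on the log2(FPKM + 1) scale (x axis, TGF-β1 minus Control) with its 95% interval from limma, for the 9 members past the filter (black) and the 12 other tested ADAM, ADAMTS and ADAMTS-like genes (purple), with open symbols where the gene was not called. Adam12 and Adamts6 lie at the right end with 2.85 and 2.19, and Adamts1 at the left end with -3.95; scaling to a common protein-coding sum moves the median of all genes by -0.17.

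ADAM proteins depend on partners for maturation and for transport to the cell surface. Of 15 such genes, 10 were tested, 2 rose, 1 fell and 7 were not called (median 0.10). Among all tested rows, 48.1% were called, 24.5% as higher and 23.6% as lower. Furin, the convertase that removes the inhibitory prodomain of ADAM and ADAMTS precursors, went from 21.7 ± 4.59 to 49.0 ± 2.76 FPKM (1.15 on the log2(FPKM + 1) scale, limma adjusted p = 0.00133). Sh3pxd2a, the scaffold Tks5 that binds ADAM12 and ADAM19 tails, rose by 0.55 (adjusted p = 0.00264). Tspan5, a tetraspanin that carries ADAM10 out of the endoplasmic reticulum, read 45.1, 46.1 and 43.2 FPKM in Control and 8.10, 9.31 and 8.84 FPKM with TGF-β1, a change of -2.23 (adjusted p = 1.25e-05). Of the other 5 tetraspanins listed, Tspan14 and Tspan17 were not called, with changes of 0.09 and -0.02. Tspan15 (1.35 to 0.386 FPKM, -0.76, adjusted p = 0.00111) and Tspan33 (0.444 to 0.143 FPKM, -0.34, adjusted p = 0.0433) fell in the limma fit without the filter, where Tspan10 was near 0. The iRhoms, which escort ADAM17, were not called either: Rhbdf1 was at -0.62 (adjusted p = 0.0501, from 0.0138 to 0.183 over the alternatives) and Rhbdf2 at 0.12.

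Genes for inhibitors and the clearance route moved unevenly: of 9 genes listed, a cofactor included, 6 were tested, 1 rose and 3 fell (median -0.32). The cofactor, Fbln1, was under the filter, at 0.769 ± 0.102 and 0.373 ± 0.135 FPKM. It fell in the fit without the filter (-0.37 on the log2(FPKM + 1) scale, limma adjusted p = 0.0350), where 1 of the 9 rose and 4 fell. The shares of all tested rows were 24.5% called higher and 23.6% called lower. Timp3, the tissue inhibitor best known for blocking ADAM17 and the aggrecanases, was at 45.0 ± 0.641 and 42.3 ± 3.95 FPKM (-0.09 on the log2(FPKM + 1) scale, limma adjusted p = 0.416). Timp1 rose from 209 ± 15.9 to 506 ± 25.8 FPKM (1.27, adjusted p = 1.43e-04) and Timp2 fell from 418 ± 15.7 to 287 ± 25.1 FPKM (-0.55, adjusted p = 0.00417). Reck, a membrane-anchored inhibitor, showed the widest fall of this list, from 5.82 ± 1.17 to 1.98 ± 0.394 FPKM (-1.19, adjusted p = 0.00172). Lrp1, the endocytic receptor that clears ADAMTS proteins, was at 223 ± 33.1 and 296 ± 50.8 FPKM (0.40, adjusted p = 0.0930), while its chaperone Lrpap1 fell by 0.88.

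Of 26 membrane proteins known to be shed by ADAM proteases, 19 were tested, 9 rose, 6 fell and 4 were not called (median 0.08). For comparison, 24.5% of all tested rows were called higher and 23.6% lower. Of 8 growth factors of the EGF family on this list, 4 rose: Hbegf went from 51.8 ± 9.10 to 129 ± 5.81 FPKM (1.31 on the log2(FPKM + 1) scale), Nrg1 from 11.4 ± 1.29 to 35.3 ± 2.53 FPKM (1.55) and Ereg from 0.394 ± 0.0983 to 1.71 ± 0.191 FPKM (0.96), with limma adjusted p-values of 4.79e-04, 1.08e-04 and 0.00167. Areg and Ereg passed the filter through the treated libraries. Areg read 0.0900, 0.0903 and 0 FPKM in Control and 2.83, 2.67 and 3.51 FPKM with TGF-β1 (1.91, adjusted p = 1.33e-04). Tgfa, Btc, Epgn and Egf, the others of that group, were under the filter and were not called without it.

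Receptors and adhesion molecules on the list moved both ways. Notch1, Notch2, Cdh2 and L1cam fell, by 1.26, 0.42, 0.83 and 0.69 on the log2(FPKM + 1) scale. Cd44, the hyaluronan receptor, Cx3cl1, Axl and Prnp rose, with changes of 1.82, 0.68, 0.58 and 0.28, and Alcam at -0.03 was not called. The TNF receptors went apart, Tnfrsf1a at -0.48 and Tnfrsf1b at 0.99, both called. Vcam1 showed the widest fall of the list, from 3.44 ± 0.0101 to 0.679 ± 0.178 FPKM (-1.41, limma adjusted p = 2.71e-04), and passed the filter through the Control libraries. App, the most abundant gene of the list, was at 215 ± 17.9 and 212 ± 16.4 FPKM (-0.02, adjusted p = 0.876).

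Of 14 matrix proteins cut by ADAMTS proteases, 8 were tested, 6 rose and 1 fell (median 1.03, against -0.02 for all tested rows). Of all tested rows, 24.5% were called higher and 23.6% lower. Col1a2 is among the 6 and passed the filter through the treated libraries. The count and the median depend on the filter. Without it, 5 of the 14 rose, Col1a2 still among them (limma adjusted p = 0.0200), and 1 fell. Vcan, the versican cleaved by Adamts1, Adamts4, Adamts5 and Adamts9, was at 82.1 ± 2.33 and 102 ± 11.6 FPKM, a rise of 0.30 on the log2(FPKM + 1) scale with a limma adjusted p of 0.0478. Vcan was the gene that lost its call without the filter (adjusted p = 0.0585). It was called in 5 of 16 alternatives (adjusted p 0.0335 to 0.446) and in 1 of the 6 that left out a library. The list had 5 to 7 genes called over the alternatives. Acan, Bcan and Ncan, the other large proteoglycans of this kind, were all under 1 FPKM. The small proteoglycans parted: Bgn rose from 7.53 ± 0.306 to 59.8 ± 4.75 FPKM (2.83, adjusted p = 7.84e-06) and Dcn fell from 104 ± 1.92 to 3.30 ± 0.472 FPKM (-4.62, adjusted p = 2.69e-06). Of the procollagens that Adamts2 trims, Col1a1 rose from 231 ± 6.10 to 953 ± 37.4 FPKM (2.04, adjusted p = 1.72e-05), while Col3a1 was not called (0.10, adjusted p = 0.504). The row of Col1a2 names a short transcript of 850 nt, 1 of 9 annotated, and was listed at 0.726 ± 0.156 and 1.50 ± 0.232 FPKM, an example of a row that may not hold the level of the whole gene.

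**Figure D5:**
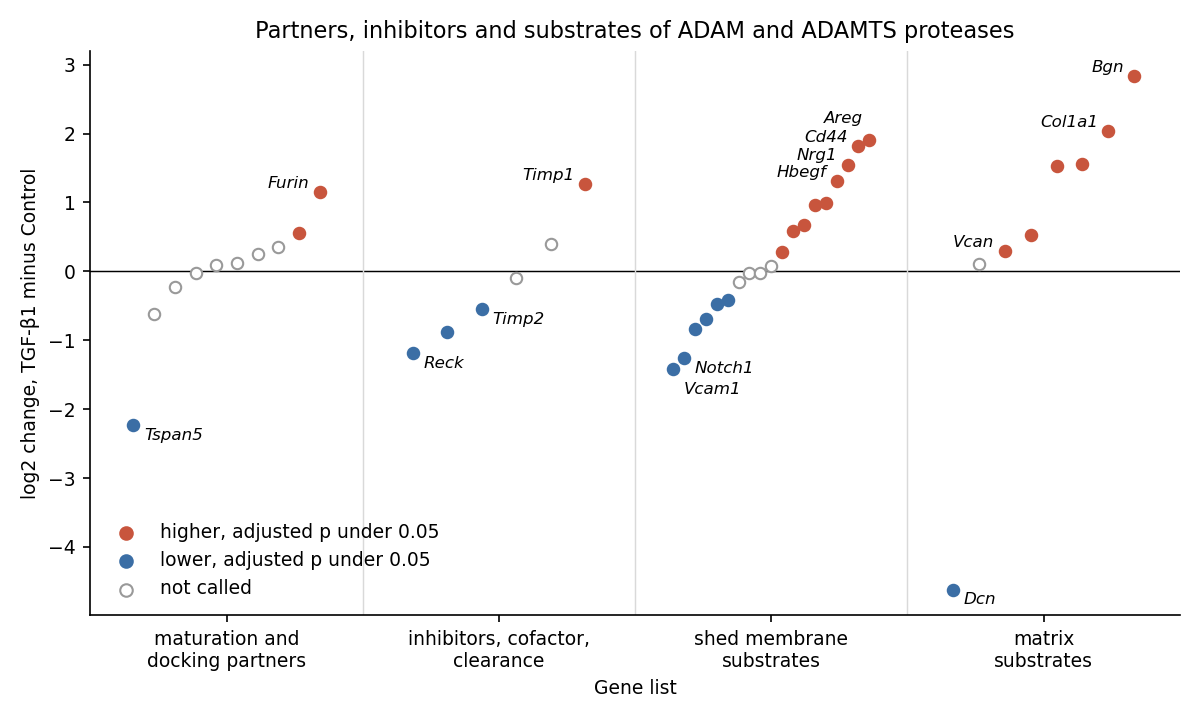
Change on the log2(FPKM + 1) scale (y axis, TGF-β1 minus Control) of each tested gene in 4 lists of partners, inhibitors and substrates, ordered by change within a list (red: higher, blue: lower, open: not called). Tspan5 at -2.23 and Dcn at -4.62 are the lowest of their lists, and Bgn at 2.83 is the highest point.

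As a description of the pattern over the 6 libraries, the rows of at least 300 nt most like Adam12 by Pearson's r of log2(FPKM + 1) were Thyn1 (0.9998), Nuak1 (0.9998) and Ift20 (0.9997), out of 11610 rows compared. For Adamts1 they were Sult1c2 (0.9998), Snx33 (0.9997) and Keg1 (0.9996). Such values are common in a design of 2 groups, since 481 rows had an r of at least 0.99 with Adam12 and 331 with Adamts1, and the libraries and their depth are shared.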

How the data were processed

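Reads of low quality were dropped by the authors, who aligned the others to mm9 (TopHat) and derived FPKM (Cufflinks); the submitters' notes name TopHat2 2.0.11. The deposited table gives FPKM for each library, and no scaling across libraries is stated. The authors used a count model, DESeq, which FPKM values do not allow. Whether a row holds a gene or the transcript it names is not stated.

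The 11898 rows averaging at least 1 FPKM were tested with limma 3.58.1 in R 4.3.3 (eBayes with a trend) on log2(FPKM + 1), two-sided, adjusted by Benjamini-Hochberg over all of them and called at an adjusted p under 0.05. This scale understates changes of low genes. Depth was recovered from FPKM steps, assuming fragments of 200 nt: 99.4% to 99.9% of low values lay within 0.15 of a whole fragment. Exact permutation tests compared ratios. Other software was matplotlib 3.10.9, scipy 1.17.1, pandas 2.3.3 and numpy 2.4.6 under Python 3.11.15.

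Members and lists were chosen with earlier results of these data known. All members were named, and from each list the gene with the highest level, the largest rise and the largest fall, with some further members chosen after their values were seen. A few items, 1 promoter among them, are not reported here. Alternatives changed the pseudocount, scaling, filter, trend, replicate block and libraries.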

Additional observations from a re-analysis of the deposited data

How the results depend on the processing

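None of the 157 member changes recomputed under the alternatives changed sign, and 144 kept their side of the threshold. Of 176 recomputed counts, 163 stayed within 1.5 times the reported count. The 40 recomputed ratios kept their sign, but their exact p cannot pass 0.05 with so few libraries. Scaling to a common sum of protein-coding rows moved the median of all genes by -0.17 and gave 2015 higher and 3927 lower (33.9% higher), against 2911 and 2810 (50.9%) as reported and 2573 and 3121 (45.2%) at a common 75th percentile, with 47.7% higher without the filter. That common sum left Adam9 at 0.22 (adjusted p = 0.112) and Adam17 at 0.35 (adjusted p = 0.0896), neither called, put Adam10 past the threshold at -0.33 (adjusted p = 0.0127), and called 5 partner genes in place of 3. With replicates 1 and 3 only, 2161 rows were called higher and 2034 lower, 13 shed and 5 matrix substrates in place of 15 and 7. In that fit Adam9 (0.29), Adam17 (0.42) and Adamts9 (-0.39) lost their calls and 1 of the 2 ADAMTS-like genes was called. Without the filter, Adam17 (0.53, adjusted p = 0.0525) lost its call, 4 other ADAM genes were called in place of 2, and 5 partner genes. At a filter of 3 FPKM, 0 other ADAM genes, 2 of the other ADAMTS genes in place of 4 and 5 partner genes were called, with Adamts4 and Adamts9 under the filter. Leaving out 1 library gave 0.33 to 0.48 for Adam9, -0.19 to -0.07 for Adam10, 0.43 to 0.66 for Adam17, -0.54 to -0.43 for Adamts9, 1 to 2 other ADAM genes and 4 to 6 members called higher, with Adam17 lost in 4 of these 6 fits. A replicate block called 2728 rows higher and 2663 lower and 4 other ADAM genes. The numbers were not used as pairs in the main fit. Same-numbered libraries had correlations of their deviations of 0.0921, 0.232 and 0.0853. Control replicate 1 correlated more with TGF-β1 replicate 3 (0.117), while the other differently numbered pairs were all negative (-0.194 to -0.016). The block changed the call of no member. The causes of these shifts were not tested. About 10 to 11 M fragments limit Adamts4 and Adamts9 most.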
